A study of Mus musculus with 2 samples.

Results

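Heat shock chaperone genes were followed through 6 kinds of cell in the gut of 2 mice. The members are Hspa1a, Hspa1b, Dnajb1, Dnaja1, Hspb1, Hsph1, Hspa8 and Hsp90aa1, whose proteins work in the cytosol and nucleus, and Hspd1 and Hspe1, whose proteins work inside mitochondria. The rule lists the genes by name and uses no measured value, though the list was drawn up with earlier results of these data known. They make up 10 of the 31253 genes counted. All 10 had at least 50 unique molecules (UMIs) over both libraries in each kind of cell.

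Single cells of dissociated whole intestine were sequenced with 3' droplet chemistry, 1 wild-type mouse per group. The mouse of the RA library belonged to the collagen-induced arthritis group and ate standard chow. The mouse of the butyrate library ate a diet with 1% butyrate, a short-chain fatty acid and microbial fermentation product. Whether arthritis was also induced in the butyrate-fed mouse is not said in the labels, which also give no strain, age or sex. Diet, mouse, dissociation and library therefore cannot be told apart, and no test between the groups was possible. Every interval below is a 95% interval for counting error alone.

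Chaperones bind unfolded protein and help it fold, hold it soluble or pass it on. The inducible members are switched on by heat shock factor 1 (HSF1) when unfolded protein accumulates, and also by warming and handling of tissue, while the constitutive members serve folding in unstressed cells. Hspd1 (Hsp60) and Hspe1 (Hsp10) form the barrel and the lid of the chaperonin that folds imported proteins in the mitochondrial matrix.

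A barcode was kept as a cell from 500 UMIs and 250 genes upwards, with no more than 25% of its UMIs from mitochondrial genes. This left 6909 RA cells and 8247 butyrate cells. The medians were 4712 and 5141 UMIs per kept cell. Over the mitochondrial limit lay 29.95% and 15.42% of barcodes, and 19 kept barcode sequences occurred in both libraries. Cells were gated on 1 UMI of Epcam (epithelium), Cd79a (B lineage), Cd3e (T cells) or Cdh5 (endothelium), on 2 UMIs of Col1a2 (fibroblasts) or on 10 UMIs of C1qa, C1qb and C1qc together (macrophages). RA and butyrate cells numbered 1694 and 2092 in the Epcam gate, 3533 and 5108 in the Cd79a gate, and 743 and 1355 in the Cd3e gate. They numbered 130 and 107 in the C1q gate, 865 and 367 in the Col1a2 gate, and 188 and 129 in the Cdh5 gate. A cell can pass several gates, as 1045 RA and 1353 butyrate cells did, and a droplet with more than 1 cell or with free RNA would do so. In the Epcam gate 46.0% (RA) and 43.8% (butyrate) of cells passed no other gate, and 39.3% and 42.3% also passed the Cd79a gate.

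The marker list of each class includes its gating genes, so their presence, and part of each sum below, was fixed by the gate. Summed over the marker list of its own class, cells of 1 gate only held 18641 and 19072 CPM (UMIs of a gene scaled to 1000000 UMIs of the gate) in the Epcam gate (RA, then butyrate), 2859 and 2739 in the Cd79a gate and 3594 and 3848 in the Cd3e gate. The sums were 18378 and 19317 CPM in the C1q gate, 20056 and 21091 in the Col1a2 gate, and 7113 and 7705 in the Cdh5 gate. No marker of the own class was at 0 in any gate. Cells of the Col1a2 gate also held smooth muscle markers (Acta2, Myh11, Tagln, Des), at 215 and 415 CPM, or 243 and 628 CPM in cells of 1 gate only. Mesothelial markers (Msln, Upk3b, Lrrn4) summed to 77.1 and 6.13 CPM in all cells of that gate. Epithelial markers summed to 2281 and 1036 CPM in all cells of the Cd79a gate but to 197 and 123 CPM in its cells of 1 gate only, so values for cells of 1 gate only are given beside the ratios below where leaving out the others changed the reading, and the plot of ratios shows both sets for every gene. Plasma cell markers (Jchain, Xbp1, Mzb1, Derl3) were also present in the Cd79a gate and were unequal between the libraries, at 5999 and 1857 CPM in all its cells and 2103 and 566 CPM in its cells of 1 gate only. In the Epcam gate they summed to 5062 and 2303 CPM in all cells and to 109 and 98.7 CPM in cells of 1 gate only.

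HSF1 binds the heat shock element, in which short GAA units face in alternating directions. The stretches below were read from RefSeq promoters on GRCm38.p6 because they hold a pair of facing units, GAANNTTC or TTCNNGAA, in the 250 bases before a start site. Both letter strings read the same on either strand. They are written 5′ to 3′ on the strand of the gene, with the matched letters in capitals.
Hspa1a: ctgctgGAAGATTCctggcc
Hspa1b: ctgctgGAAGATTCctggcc
Dnaja1: cctctaGAAAATTCtacgag
Hspb1: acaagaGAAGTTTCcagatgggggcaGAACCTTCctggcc
Hsph1: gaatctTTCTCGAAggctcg
Hspe1: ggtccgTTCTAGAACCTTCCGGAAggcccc

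The Hspa1a and Hspa1b stretches lie at chr17:34972247-34972266 and chr17:34959329-34959348, both on the minus strand, with the match 104 to 97 bases before the start site in each gene. Over the whole 250 bases, the promoters of these neighbouring copies were the same at 247 positions (98.8%). The other stretches lie at chr4:40722338-40722357 (plus strand) for Dnaja1, chr5:135887796-135887835 (plus) for Hspb1, chr5:149636356-149636375 (minus) for Hsph1 and chr1:55088053-55088082 (plus) for Hspe1. In GENCODE M21 the Hspa1a, Hspa1b and Hspb1 stretches overlap no exon, whereas the Dnaja1, Hsph1 and Hspe1 stretches overlap an exon of Dnaja1 (and of Gm6297 on the other strand), Hsph1 and Hspd1, in that order.

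Hspd1 (chr1:55077835-55088243, minus strand) and Hspe1 (chr1:55088132-55091307, plus strand) start head to head, so the Hspe1 stretch lies upstream of a start site of each. Its overlapping matches span 89 to 72 bases before the Hspe1 start, and on the other strand 144 to 127 bases before 1 of the 2 Hspd1 starts. It is a run of more than 2 alternating units, and runs of at least 3 (GAANNTTC followed by NNGAA, or TTCNNGAA followed by NNTTC, each the other's reverse complement and each containing a shorter string) were present for Hspd1 and Hspe1 only among the 8 members in the promoter table. Both Dnajb1 windows held no match. In all, 7 of those 8 members had a match of 2 units, against 14.55% of the 27025 genes in the table, and 2 of 8 had one of 3 units, against 0.5143%. A match describes the letters in these windows. Binding was not measured.

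The inducible Hsp70 genes Hspa1a and Hspa1b, whose proteins clamp unfolded stretches of other proteins, differed widely between kinds of cell. Hspa1a stood at 4432 CPM in the C1q gate, 3169 in Cdh5, 2998 in Col1a2, 1109 in Epcam, 443 in Cd3e and 389.9 in Cd79a in the RA library. The butyrate library had 5072, 5057, 5621, 1283, 324 and 296 CPM in the same order of gates. Macrophages, endothelium and fibroblasts were thus high in both mice, epithelium intermediate and lymphocytes low, with 11.4-fold (RA) and 19.0-fold (butyrate) between the highest and the lowest gate. The order of the Col1a2 gate changed, from the third rank to the first, and the butyrate intervals of the C1q and Cdh5 gates overlapped.

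**Figure D1:**
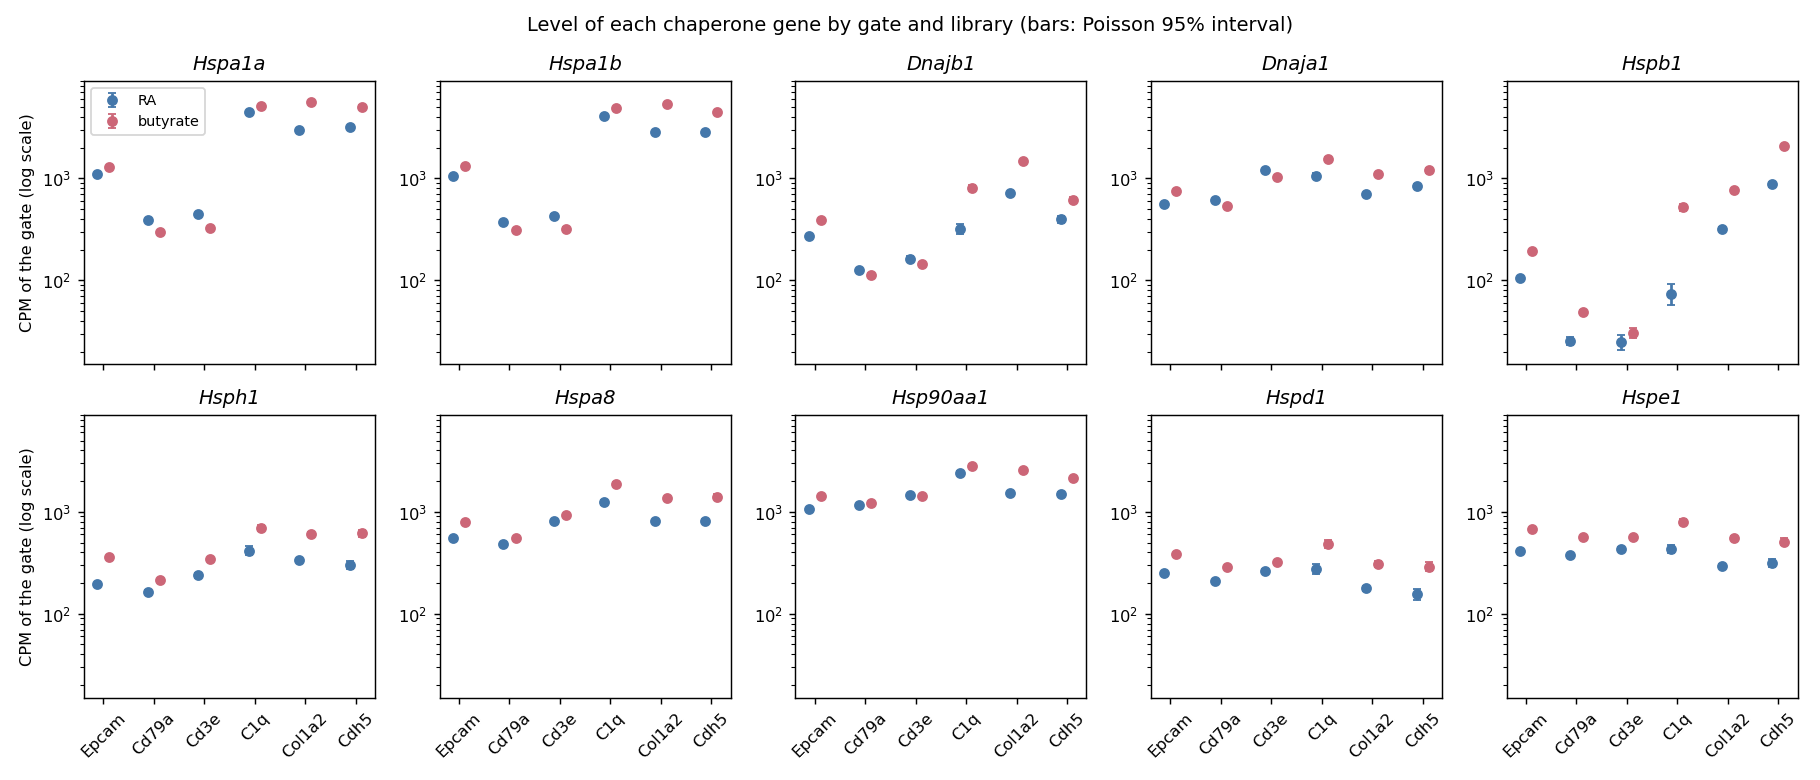
Level of each of the 10 chaperone genes (CPM of all UMIs in the gate, log scale) in 6 gates, with 1 point per library (blue RA, red butyrate) and Poisson 95% intervals as bars. Hspa1a, Hspa1b, Dnajb1 and Hspb1 span the widest range over gates, Hspd1 and Hspe1 the narrowest, and red lies above blue for all 10 genes in the Col1a2 and Cdh5 gates.

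Between the libraries, the butyrate-over-RA ratio of Hspa1a was 1.875 (1.84 to 1.91) in the Col1a2 gate and 1.60 (1.54 to 1.66) in the Cdh5 gate. It was 1.16 (1.14 to 1.18) in the Epcam gate and 1.14 (1.10 to 1.19) in the C1q gate. In lymphocytes it lay below 1, at 0.758 (0.736 to 0.781) in the Cd79a gate and 0.732 (0.696 to 0.771) in the Cd3e gate. Markers of other cells moved with these lymphocyte values. In the Cd3e gate epithelial markers summed to 2069 (RA) and 822 CPM (butyrate) and fibroblast markers to 530.2 and 69.4 CPM, and in the Cd79a gate fibroblast markers summed to 534 and 199 CPM. In cells of 1 gate only, the Cd3e sums were 165 and 110.5 CPM (epithelial) and 14.7 and 2.27 CPM (fibroblast), and the Cd79a fibroblast sums 38.9 and 1.996 CPM. Their part in the ratios of all cells was not tested. The library with more Hspa1a was the butyrate library in 4 gates and the RA library in the other 2. Without cells of a second gate, the Cd79a ratio was 0.483 (0.455 to 0.512), with 186.5 CPM (RA) and 90.02 (butyrate), and the Cd3e ratio was 0.985 (0.904 to 1.07), an interval that includes 1.

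Hspa1b followed Hspa1a closely. Its RA levels were 4064 CPM (C1q), 2857 (Col1a2), 2823 (Cdh5), 1052 (Epcam), 431 (Cd3e) and 372 (Cd79a), and its butyrate levels were 4849, 5405, 4499, 1318, 319 and 309 CPM. The ratios ran from 0.742 in the Cd3e gate and 0.831 in the Cd79a gate to 1.59 in the Cdh5 gate and 1.89 in the Col1a2 gate. At doubled gate thresholds the Cd79a ratio was 0.9995 (0.966 to 1.03), an interval that includes 1. Over the 12 points of 6 gates in 2 libraries, log2(CPM + 1) of the copies gave a Pearson r of 0.9995, a description, since the points share libraries and cells. The last 500 bases of their transcripts shared no stretch of 50 bases, so 3' reads there can tell the copies apart.

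Dnajb1 (Hsp40), an HSF1 target that delivers clients to Hsp70, was highest in fibroblasts, with 718 CPM (RA) and 1468 (butyrate). The C1q gate had 318 and 804 CPM, Cdh5 395 and 611, and Epcam 269 and 392. The Cd79a gate had 125 and 113 CPM and the Cd3e gate 163 and 145. Dnajb1 thus resembled the Hsp70 pair in being higher in the butyrate library outside lymphocytes. Its ratio was 2.53 (2.22 to 2.885) in macrophages and 2.05 (1.97 to 2.13) in fibroblasts, but 0.903 (0.859 to 0.9496) and 0.886 (0.816 to 0.962) in the Cd79a and Cd3e gates. Doubled gate thresholds brought the Cd79a ratio to 1.11 (1.05 to 1.18), and the Cd3e interval included 1 after thinning (0.889, 0.6965 to 1.14) and at a mitochondrial limit of 10% (0.932, 0.854 to 1.02).

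Dnaja1, a second J-domain partner of Hsp70 that also acts on constitutive folding, had another order of gates. T cells held 1194 CPM in the RA library, the highest of the 6 gates there, and 1023 CPM in the butyrate library. The C1q gate had 1059 and 1557 CPM, Cdh5 839 and 1193, Col1a2 705 and 1095, Cd79a 616 and 534, and Epcam 561.5 and 756. The butyrate value was the higher one in epithelium, macrophages, fibroblasts and endothelium and the lower one in both lymphocyte gates (ratios 0.866 and 0.857). In the Epcam gate the ratio of 1.35 became 0.951 (0.871 to 1.04) when each cell was thinned to 1000 UMIs and 0.973 as a mean over cells, but was 1.57 (1.52 to 1.63) in cells of 1 gate only.

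Hsph1 (Hsp110), which reloads Hsp70 with nucleotide, was higher in the butyrate library in all 6 gates. Its RA and butyrate levels were 196 and 358 CPM in the Epcam gate, 164 and 216.5 in Cd79a, 239 and 343 in Cd3e, 417 and 696 in C1q, 333 and 607 in Col1a2 and 302 and 617 in Cdh5. The ratios lay between 1.32 (1.27 to 1.38) in the Cd79a gate and 2.04 (1.82 to 2.29) in the Cdh5 gate. In Cd79a cells of 1 gate only it was 1.19 (1.13 to 1.26). Lymphocytes were thus on the same side as the other cells for this gene, unlike for Hspa1a, Hspa1b, Dnajb1 and Dnaja1.

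Hspb1 (Hsp25), a small chaperone that holds unfolded protein soluble and binds the actin skeleton, had the widest range over kinds of cell. Endothelium held 873 CPM (RA) and 2054 (butyrate), fibroblasts 317.5 and 759, and epithelium 104 and 192. Cells of the C1q gate had 73.3 and 518 CPM, of the Cd79a gate 25.4 and 48.7, and of the Cd3e gate 24.8 and 30.4. From the highest to the lowest gate this was 35.25-fold in the RA library and 67.6-fold in the butyrate library.

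The Hspb1 ratio was 2.35 (2.21 to 2.51) in endothelium, 2.39 (2.26 to 2.53) in fibroblasts and 1.84 (1.75 to 1.94) in epithelium. In macrophages it was 7.07 (5.54 to 9.15), but the 10 cells richest in Hspb1 held 89.2% of its 74 RA UMIs and 84.7% of its 529 butyrate UMIs there, so few cells set this value. Without them it was 10.4 (5.02 to 24.8). The Cd3e ratio of 1.23 (1.00 to 1.505) became 1.94 (1.28 to 3.004) without such cells, 2.57 (1.51 to 4.605) in cells of 1 gate only, 2.92 (1.205 to 8.54) after thinning and 0.741 (0.584 to 0.942) at doubled gate thresholds, so its direction is not settled. The Cd79a ratio of 1.91 (1.73 to 2.115) was 2.91 (2.56 to 3.31) at doubled thresholds. In Cd79a cells of 1 gate only it was lower, at 1.651 (1.325 to 2.07), with 8.491 CPM (RA) and 14.02 (butyrate). Few cells also held much of the Hspb1 signal of the whole Cd79a gate. The 10 richest held 57.43% of its RA UMIs and 58.11% of its butyrate UMIs. Without them the ratio was 1.873 (1.609 to 2.186).

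Hspa8 (Hsc70), the constitutive Hsp70, had a narrower range over gates than Hspa1a. Its RA and butyrate levels were 1244 and 1866 CPM in the C1q gate, 812 and 1357 in Col1a2, 811 and 1410 in Cdh5, 809 and 928 in Cd3e, 551 and 803 in Epcam, and 479 and 552 in Cd79a. The ratio was 1.15 in both lymphocyte gates and 1.46 to 1.74 in the other 4. Neither lymphocyte ratio held under every alternative. B-lineage cells gave 0.969 (0.909 to 1.03) after thinning, 1.02 (0.988 to 1.05) in cells of 1 gate only and 0.9825 (0.955 to 1.01) without cells with a UMI of Mki67 or Top2a. T cells gave 1.03 (0.9345 to 1.14) after thinning and 1.035 (0.9935 to 1.08) without Mki67 or Top2a cells. Of the 50-base windows in the last 500 bases of its transcript, 81.8% also occur in other genes of the annotation. Its level is therefore less certain than that of the other members. The shares for Hspe1 and Hspb1 were 53.2% and 16.0%. None of the genes that share these windows is among the genes counted here.

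Hsp90aa1, the stress-responsive cytosolic Hsp90 that matures kinases and hormone receptors, had the smallest differences in lymphocytes. RA and butyrate levels were 1164 and 1215 CPM in the Cd79a gate (ratio 1.04, 1.03 to 1.06) and 1452 and 1430 in the Cd3e gate (0.985, 0.959 to 1.01). The Epcam gate had 1076 and 1426 CPM, C1q 2427 and 2844, Cdh5 1512 and 2134, and Col1a2 1540 and 2584, the last at a ratio of 1.68 (1.63 to 1.725). Fibroblasts thus showed the widest gap of the 6 gates. The Cd79a value lay below 1 in cells of 1 gate only (0.921, 0.903 to 0.939) and after thinning (0.832). Thinning also brought the Epcam ratio from 1.32 to 1.035 (0.9715 to 1.10) and the C1q ratio from 1.17 to 1.03 (0.878 to 1.198), and the mean over cells gave 1.06 in the Epcam gate.

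The mitochondrial pair was the most even over kinds of cell. Hspd1 ranged from 155.5 CPM (Cdh5) to 276 (C1q) in the RA library, with 177 in Col1a2, 210 in Cd79a, 252 in Epcam and 264 in Cd3e. In the butyrate library it ranged from 289 (Cd79a) to 484 (C1q), with 291 in Cdh5, 307 in Col1a2, 319 in Cd3e and 388 in Epcam. That is 1.78-fold and 1.68-fold from end to end, against 11.4-fold and 19.0-fold for Hspa1a.

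For Hspe1 the RA and butyrate levels were 408.5 and 675.5 CPM in the Epcam gate, 379 and 570.5 in Cd79a, 430.4 and 566 in Cd3e, 434 and 798 in C1q, 296 and 555 in Col1a2 and 315 and 508 in Cdh5. Both genes were higher in the butyrate library in every gate. Hspd1 ratios ran from 1.21 (1.14 to 1.28) in T cells to 1.87 (1.59 to 2.20) in endothelium, and Hspe1 ratios from 1.315 (1.255 to 1.38) in T cells to 1.88 (1.76 to 1.997) in fibroblasts. In T cells the Hspd1 ratio was 1.18 (0.977 to 1.43) after thinning, 1.08 (0.9994 to 1.17) in cells of 1 gate only and 1.01 (0.9402 to 1.09) without cells with a UMI of Mki67 or Top2a. Epcam cells of 1 gate only gave 1.38 for Hspd1 and 1.46 for Hspe1. Over the 12 points their levels moved together (r = 0.969), and those of Hspa1a and Hspd1 hardly did (r = 0.0635).

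Counted by gate, a fold of 1.5 serves as a description, set beside the share of all genes with at least 50 UMIs that lay past it. In the Epcam gate 4 of 10 members were past 1.5-fold higher in the butyrate library (Hspb1, Hsph1, Hspd1 and Hspe1), against 4.26% of genes, and 0 were past it in the other direction, against 10.5%. Among B-lineage cells 2 of 10 were higher (Hspb1 and Hspe1), against 3.62%, and 0 lower, against 16.4%. The Cd3e gate had 0 of 10 in either direction, against 2.81% higher and 12.3% lower. The Epcam count was 2 after thinning or as a mean over cells, 6 without the mitochondrial limit and 7 at doubled gate thresholds. The Cd79a count was 1 under 7 of the 10 alternatives, and thinning and the mean over cells each put 1 member past the fold in the lower direction in the Cd79a and in the Cd3e gate.

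In the C1q gate 6 of 10 members were at or past the fold (Dnajb1, Hspb1, Hsph1, Hspd1, Hspe1 and, at the fold itself, Hspa8), against 5.6% of genes, with 0 lower against 8.43%. All 10 were past it in the Col1a2 gate, against 4.49%, with 0 lower against 7.1%, and 8 of 10 in the Cdh5 gate, all but Dnaja1 (1.42) and Hsp90aa1 (1.41), against 8.39%, with 0 lower against 11.6%. Fibroblasts were thus the gate in which every member exceeded the fold, while T cells had none. All 10 Col1a2 ratios lay above those of at least 96.4% of the genes compared there, and the percentile of Hspa1a was 16.6% in T cells and 22.2% in the Cd79a gate.

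**Figure D2:**
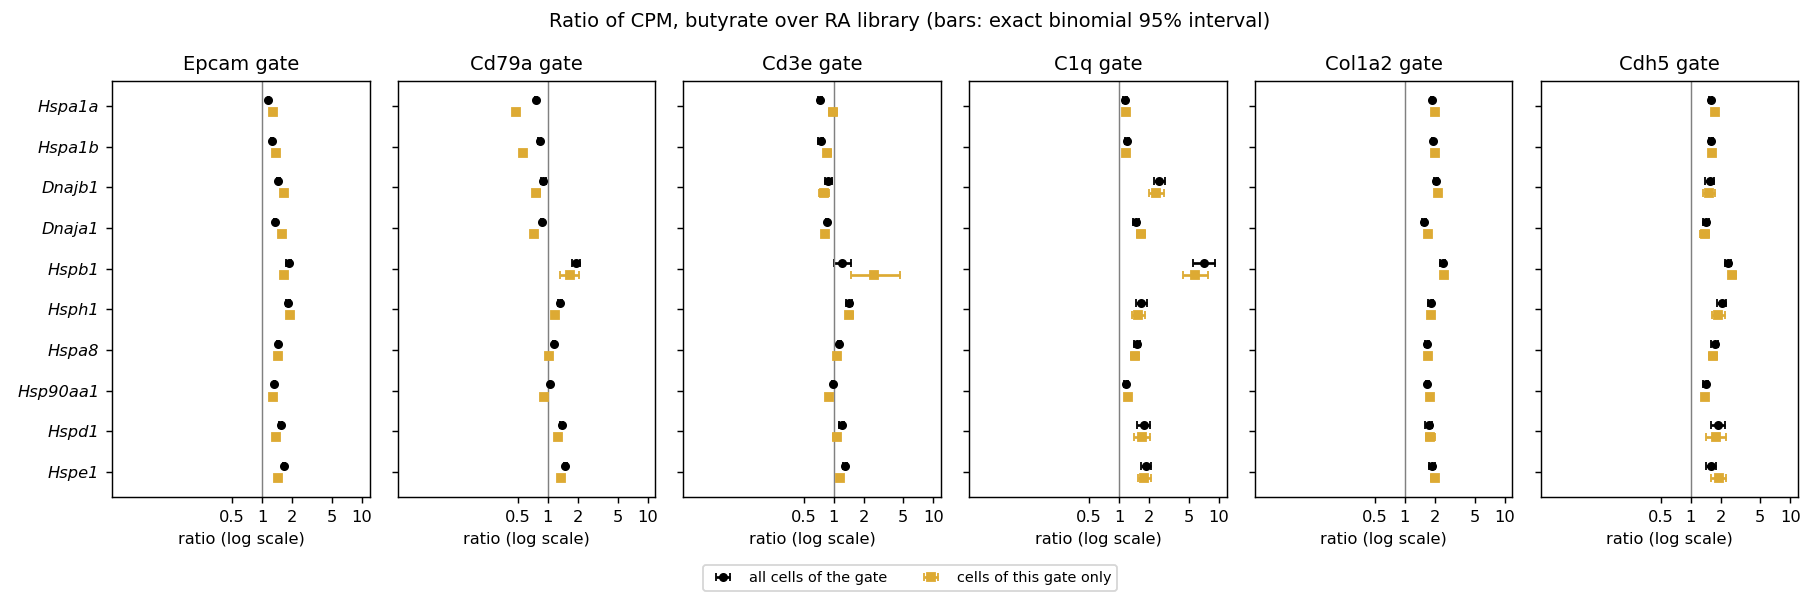
Ratio of CPM, butyrate over RA library (log scale), for the 10 genes in 6 gates, with exact binomial 95% intervals as bars (black circles all cells of the gate, yellow squares cells that pass this gate only). All points of the Epcam, C1q, Col1a2 and Cdh5 gates lie right of 1, whereas Hspa1a, Hspa1b, Dnajb1 and Dnaja1 lie left of 1 in the Cd79a and Cd3e gates.

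Among cells of 1 gate only, the numbers higher were 4, 1, 1, 6, 10 and 8 of 10 in the order Epcam, Cd79a, Cd3e, C1q, Col1a2 and Cdh5, against 3.08%, 3.71%, 2.81%, 4.99%, 4.58% and 8.09% of genes. Those lower were 0 except for Hspa1a and Hspa1b in the Cd79a gate, 2 of 10, against 5.3% of genes. In the other gates the shares of genes past 1.5-fold lower were 8% (Epcam), 6.69% (Cd3e), 10.5% (C1q), 7.2% (Col1a2) and 11.4% (Cdh5). The Hspa1b ratio in Cd79a cells of this gate only was 0.565 (0.532 to 0.601). Plasma cell markers were lower there in the butyrate library too, as given above, and their part in these 2 ratios was not tested.

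Summed over the 8 cytosolic members, the RA and butyrate levels were 4919 and 6526 CPM in the Epcam gate, 3336 and 3284 in Cd79a and 4756 and 4543 in Cd3e. They were 14033 and 18205 CPM in the C1q gate, 10280 and 18896 in Col1a2, and 10724 and 17575 in Cdh5. The lymphocyte ratios were slightly below 1, at 0.984 (0.975 to 0.994) and 0.955 (0.941 to 0.9695). The other 4 gates were higher in the butyrate library, at 1.33, 1.30, 1.84 and 1.64 for Epcam, C1q, Col1a2 and Cdh5. The mitochondrial sums gave 1.61 (1.58 to 1.65), 1.46 (1.43 to 1.49), 1.27 (1.23 to 1.32), 1.805 (1.65 to 1.98), 1.82 (1.735 to 1.92) and 1.70 (1.54 to 1.87) in the order Epcam, Cd79a, Cd3e, C1q, Col1a2 and Cdh5. In the Epcam, Cd79a, Cd3e and C1q gates the mitochondrial interval lay wholly above the cytosolic one. In the Col1a2 and Cdh5 gates the intervals overlapped. They also overlapped in Epcam cells of 1 gate only, at 1.402 (1.387 to 1.418) for the cytosolic and 1.429 (1.388 to 1.471) for the mitochondrial sum. There was no replicate to test the difference on.

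A CPM of a gate weights each cell by its UMIs, and cells with many UMIs carried much of the signal. In the Epcam gate the cytosolic median over cells was 1915 CPM (RA) and 1823 (butyrate), although the sums were 4919 and 6526 CPM. The 10th percentiles were 229.7 and 311.2 CPM, the 75th 4488 and 4546, and the 90th 9121 and 10397. The mean over cells was 3705 and 4158 CPM, a smaller gap than that of the sums. Among Epcam cells of over 10000 UMIs the cytosolic level was 5628 CPM (RA) and 8527 (butyrate), and in cells of up to 5000 UMIs, above the lowest butyrate cell, 2781 and 2628.

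**Figure D3:**
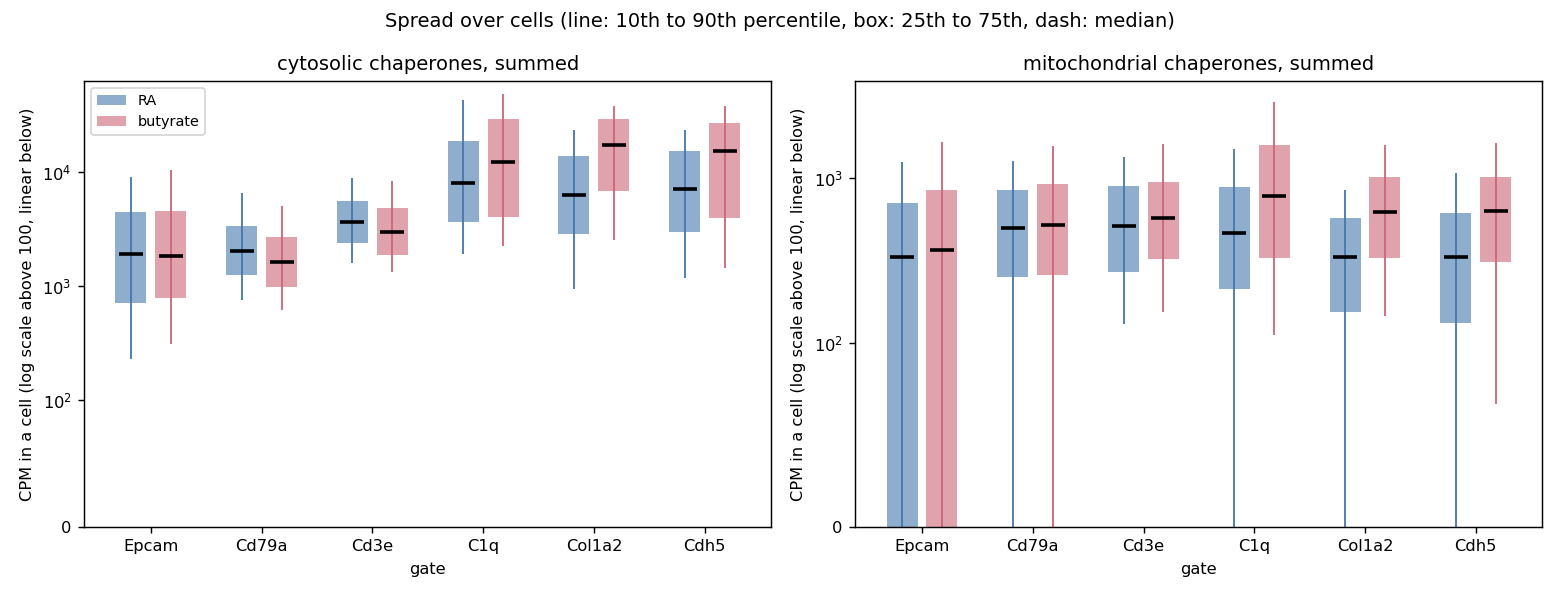
Spread over single cells of the summed cytosolic (left) and mitochondrial (right) chaperone level in CPM of the cell, by gate and library (blue RA, red butyrate). Lines run from the 10th to the 90th percentile, boxes from the 25th to the 75th, and dashes mark medians. The axis is logarithmic above 100 and linear below. The cytosolic median of the Col1a2 gate is 6306 CPM (RA) and 17422 (butyrate), while the Epcam medians, 1915 and 1823, nearly coincide.

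Fibroblasts, macrophages and endothelium were different, in that the middle of the distribution moved as well. The cytosolic medians were 6306 and 17422 CPM in Col1a2 cells, 7997 and 12212 in C1q cells and 7111 and 15340 in Cdh5 cells. In lymphocytes the medians were lower in the butyrate library, at 2053 and 1627 CPM in Cd79a cells and 3623 and 2987 in Cd3e cells. Taking the mean over cells in place of the sum gave cytosolic ratios of 0.824 and 0.873 in these gates.

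The share of cells with a UMI of a member describes it in another way and did not always follow the level. UMIs of every member were found in each gate, so no gate gives a background share. The part of free RNA in low shares was not tested. With each cell thinned to 1000 UMIs, which left out 49 RA cells of the Epcam gate and at most 12 of any other, Hspa1a was detected in 21.4% (19.4% to 23.5%) of RA and 21.2% (19.5% to 23.0%) of butyrate Epcam cells. In Col1a2 cells it was detected in 58.8% (55.4% to 62.1%) and 79.6% (75.1% to 83.6%), and in Cd79a cells in 8.63% (7.73% to 9.61%) and 5.91% (5.28% to 6.59%). Without thinning the shares were 39.4% and 39.15%, 81.6% and 91.55%, and 18.8% and 16.1%. A larger share of Col1a2 cells and a smaller share of Cd79a cells in the butyrate library thus carried Hspa1a at equal depth. The shares of Epcam cells were level within their intervals, although the ratio of Hspa1a levels there was 1.16. The C1q shares were 69.8% (61.0% to 77.7%) and 66.4% (56.6% to 75.2%), at a ratio of levels of 1.14. The Cdh5 shares, 63.6% (56.2% to 70.5%) and 71.3% (62.7% to 78.9%), also had overlapping intervals. So did the Cd3e shares, 14.7% (12.2% to 17.4%) and 10.85% (9.24% to 12.6%).

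Members were detected together in the same thinned cells. Among Epcam cells Hspa1b was found in 63.6% (RA) and 71.2% (butyrate) of cells with an Hspa1a UMI and in 9.435% and 7.40% of cells without one. Dnajb1 was found in 30.4% and 39.9% against 8.04% and 7.40%, and Hspb1 in 11.65% and 15.99% against 1.005% and 0.971%. These inducible members were thus found more often in the same cells of the Epcam gate in both mice. Many cells of this gate also passed another gate, and their part in these shares was not tested. Cells of the Cd79a gate had Hspa1b in 58.9% and 47.7% of those with Hspa1a and in 3.79% and 3.06% of the rest. Hspa1a stood at 389.9 and 295.7 CPM in all cells of that gate but at 186.5 and 90.02 CPM in its cells of 1 gate only. The part of cells of several gates in these Cd79a shares was not tested either.

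The mitochondrial member Hspd1 was also compared between cells with and without Hspa1a. It was found in 20.7% of RA Cd79a cells with Hspa1a against 16.5% of those without, and in 30.5% against 18.1% in the butyrate library. Epcam cells had shares of 19.0% against 11.3% (RA) and 33.6% against 13.2% (butyrate), and Cd3e cells 33.0% against 15.3% and 47.6% against 18.4%. Hspd1 was thus more frequent in cells with Hspa1a in all 3 of these gates. The part of cells that pass several gates in these shares was not tested. Hspe1 was found in 41.3% and 46.45% of Epcam cells with Hspd1 and in 19.4% and 24.2% of those without.

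Chaperone levels also went with the mitochondrial share of a cell's UMIs, which is often read as a sign of cell quality. Mitochondrial UMIs count in the total that a CPM is scaled to, so a higher share by itself lowers the CPM of other genes. The part of this, and of cells that pass several gates, in the levels by bin was not tested. For Epcam cells the RA cytosolic level was 4720 CPM in cells under 5% mitochondrial UMIs, 6735 from 5 to 10%, 5161 from 10 to 15%, 2126 from 15 to 25% and 668 in cells over the 25% limit. The butyrate library had 5905, 10367, 6164, 2439 and 1081 CPM in the same bins. Both libraries peaked in the bin from 5 to 10%, and the butyrate value was the higher one in each of the 5 bins. For Cd79a cells the RA values were 3303, 3834, 3741, 2389 and 1771 CPM and the butyrate values 3156, 5344, 3299, 1758 and 1167 CPM, so that the butyrate library was higher in the bin from 5 to 10% only.

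**Figure D4:**
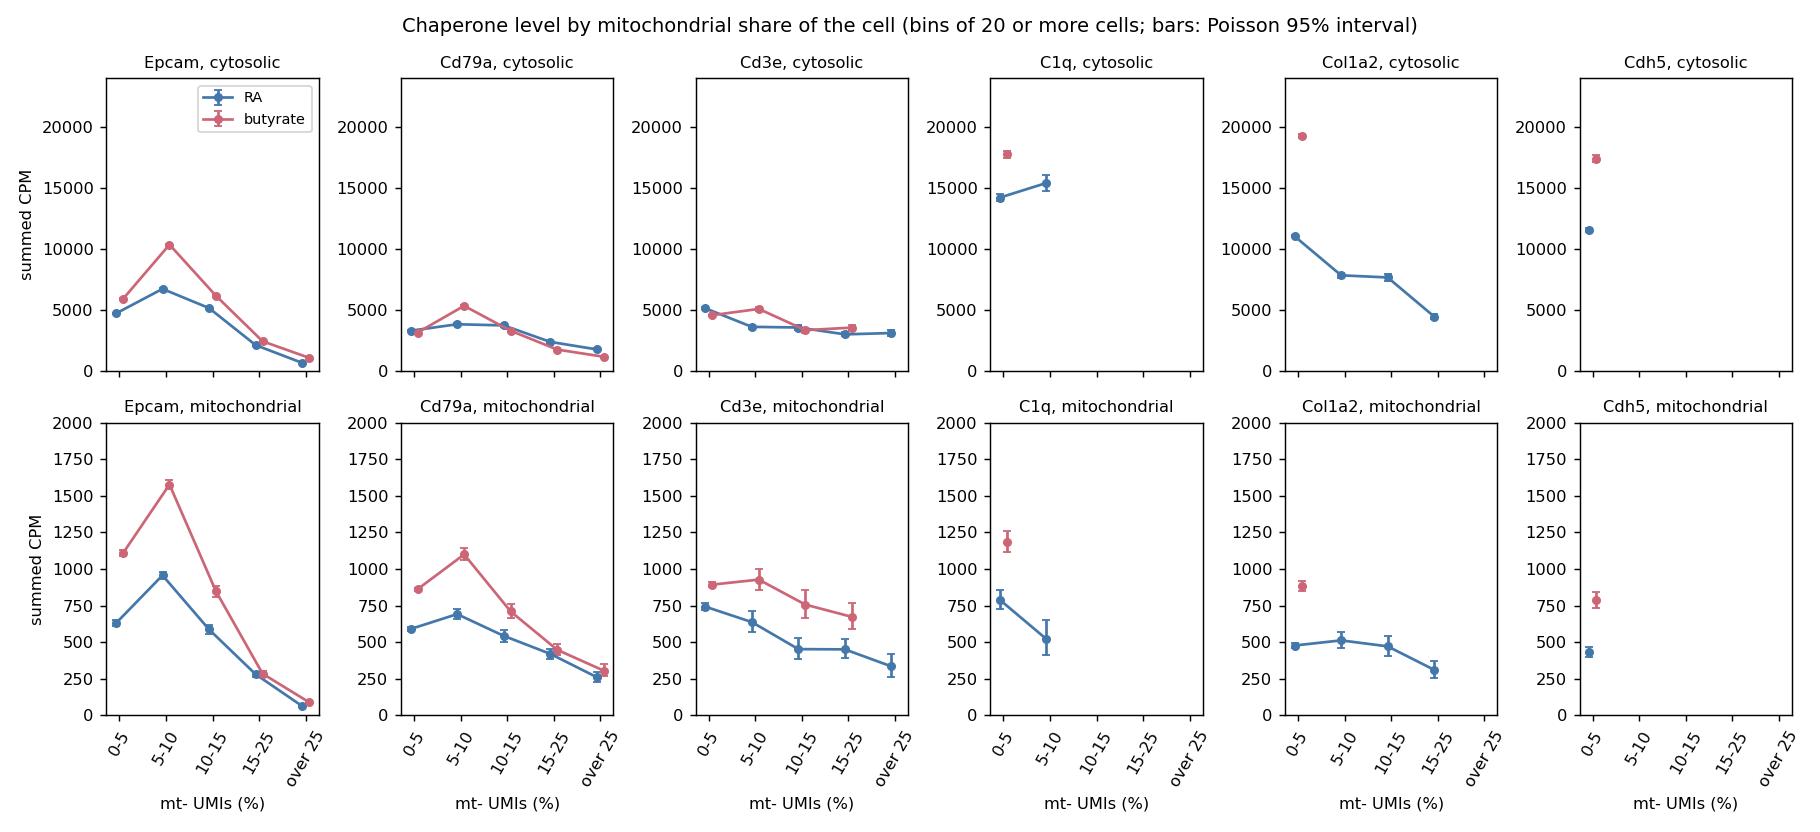
Summed CPM of the cytosolic (top) and mitochondrial (bottom) chaperones against the mitochondrial share of the cell's UMIs in 5 bins, for 6 gates (blue RA, red butyrate; bars are Poisson 95% intervals; bins of fewer than 20 cells are left out). Epcam levels peak from 5 to 10% and are lowest over 25%, and the red mitochondrial curve lies above the blue one in the first 3 bins of the Epcam, Cd79a and Cd3e gates.

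The mitochondrial pair followed the same curve in the Epcam gate. It stood at 630 CPM in RA cells under 5%, 957 from 5 to 10%, 587 from 10 to 15%, 281 from 15 to 25% and 63.4 over the limit, and at 1108, 1578, 847, 285 and 89.6 CPM in the butyrate library. The libraries met in the bin from 15 to 25%, where the intervals overlapped. Median mitochondrial shares of Epcam cells were 5.98% (RA) and 5.44% (butyrate), or 11.2% and 15.3% in cells of this gate only. With a limit of 10% the mitochondrial ratio of this gate was 1.62, close to the 1.61 at 25%.

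Dividing cells were marked by a UMI of Mki67 or Top2a, genes of proliferating cells. Mitochondrial chaperones stood at 652 CPM in marked and 575 in unmarked RA cells of the Cd79a gate, and at 1275 and 733 CPM in the butyrate library. In the Cd3e gate they were 736 and 682 CPM (RA) and 1177 and 775 (butyrate), and in the Epcam gate 862 and 575 (RA) and 1441 and 910 (butyrate). Marked cells were the higher ones in each of these 3 gates and both libraries. Marked cells also had more UMIs each, the 306 RA and 563 butyrate ones of the Cd79a gate holding 3910489 and 7572634 of its 21152668 and 32415423 UMIs. The part of depth in this gap was not tested.

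**Figure D5:**
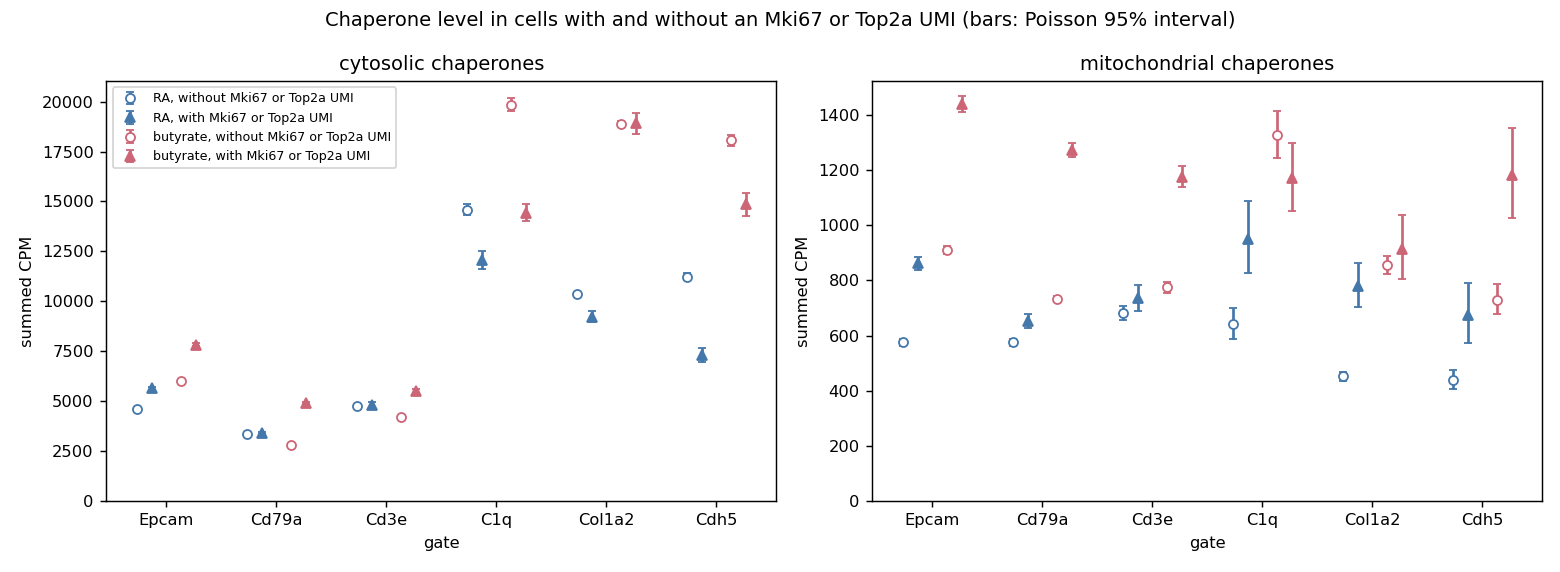
Summed CPM of the cytosolic (left) and mitochondrial (right) chaperones in cells with (triangles) and without (open circles) a UMI of Mki67 or Top2a, by gate and library (blue RA, red butyrate; bars are Poisson 95% intervals). In the Cd79a gate the butyrate triangle stands at 1275 CPM of mitochondrial chaperones and its circle at 733, against 652 and 575 in the RA library.

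Cytosolic chaperones were also higher in marked butyrate lymphocytes, at 4883 CPM in marked and 2796 in unmarked Cd79a cells, and were nearly level in the RA library, at 3396 and 3323 CPM. In the Cd3e gate the values were 5500 and 4184 CPM (butyrate) and 4805 and 4742 (RA). Marked Cdh5 cells went the other way, with 7311 against 11235 CPM (RA) and 14860 against 18063 (butyrate), though only 13 and 12 cells were marked there. Without marked cells the cytosolic ratio of the Cd79a gate was 0.8415 and the mitochondrial ratio 1.27.

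Other genes of the chaperone system were read from 7 lists. Of the 21 cytosolic partners, which include co-chaperones of Hsp70 and Hsp90, 3 were past 1.5-fold higher in the Epcam gate (4.26% of all genes), 8 of 21 in Col1a2 (4.49%), 5 of 18 measured in Cdh5 (8.39%) and 4 of 17 in C1q (5.6%). None was in Cd79a (0 of 21, 3.62%) or Cd3e (0 of 19, 2.81%). Past the fold in the lower direction were 2 in the Epcam gate (10.5% of all genes), 1 in Cd79a (16.4%) and 1 in Cd3e (12.3%). The median log2 ratio of this list was 0.23 in the Epcam gate and 0.08 in the Cd79a gate, against -0.01 and -0.03 for all genes. Stip1, which hands clients from Hsp70 to Hsp90, was at 49.0 and 82.0 CPM in the Epcam gate (ratio 1.67, 1.545 to 1.81). Ahsa1, which stimulates the Hsp90 ATPase, was at 33.1 and 50.85 CPM there (1.54) and at 50.7 and 68.8 CPM in the Cd79a gate (1.36).

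Chordc1, another Hsp90 partner, was at 67.75 and 90.6 CPM in the Cd79a gate (1.34, 1.255 to 1.43). The small heat shock genes Hspb8 and Cryab were the lowest of the list in both gates. Hspb8 had 6.44 and 2.22 CPM in the Epcam gate (0.344) and 4.35 and 0.987 CPM in the Cd79a gate (0.227), and Cryab had 8.34 and 5.40 CPM (0.648) and 3.735 and 2.59 CPM (0.694). Fibroblast markers moved with both, at 895 and 377 CPM in the Epcam gate and 534 and 199 CPM in the Cd79a gate, and their part in these ratios was not tested.

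The 8 subunits of TRiC, the cytosolic chaperonin that folds actin and tubulin, were all above 1 in the Epcam, Cd79a and Cdh5 gates, with 7 of 8 above 1 in Col1a2, 6 in Cd3e and 4 in C1q, and 0 past 1.5-fold in any gate. Their range in the Epcam gate was narrow, from 1.04 (Cct5) and 1.10 (Tcp1) to 1.21 (Cct8) and 1.27 (Cct3). The ends in Cd79a cells were Cct5 (1.13), Cct7 (1.18), Cct2 (1.28) and Cct8 (1.30). Every subunit named here stood below Hspd1 and Hspe1 of the same gate.

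Mitochondrial partners, which include Hspa9 (mitochondrial Hsp70) and the matrix proteases Lonp1 and Clpp, did not share the direction of Hspd1 and Hspe1. Of 10, 4 were above 1 in the Epcam gate and 5 in the Cd79a gate, with 0 past the fold and median log2 ratios of -0.01 and -0.003. Clpp was at 33.7 and 29.3 CPM in the Epcam gate (0.868), with Dnaja3 at 0.869, Yme1l1 at 1.06 and Clpx at 1.06. Lonp1 in Cd79a cells stood at 0.829, Afg3l2 at 0.877, Trap1 at 1.125 and Timm44 at 1.13.

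ER chaperones, which fold secreted and membrane proteins, had 0 of 14 past the fold in the Epcam and Cd79a gates, where the ends were Dnajb9 (0.901), Dnajc3 (0.9596), Creld2 (1.14) and Pdia6 (1.17), and Pdia4 (0.819), Dnajb9 (0.872), Pdia6 (1.17) and Pdia3 (1.23). In the Col1a2 gate all 14 were above 1 and 4 past the fold, against 4.49% of all genes. Of the heat shock factors, Hsf1 was at 18.3 and 20.5 CPM in the Epcam gate (1.12, 0.969 to 1.29) and 30.8 and 29.7 CPM in the Cd79a gate (0.966, 0.874 to 1.07). Both intervals include 1, as did those in Cd3e and Col1a2, while the Cdh5 gate had 22.1 and 37.5 CPM (1.70, 1.07 to 2.69) from 39 and 43 UMIs. Hsf2 stood at 1.05 and 1.19 and Hsbp1, an HSF1 inhibitor, at 1.02 and 0.948.

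Immediate early genes, which respond quickly to stimuli that include tissue dissociation, were mostly above 1 in fibroblasts, endothelium and macrophages and mostly below 1 in lymphocytes. Of 18, the numbers above 1 were 17 in the Col1a2 gate, 18 in Cdh5 and 14 in C1q, but 3 in Cd79a and 4 in Cd3e, with 8 in Epcam. Median log2 ratios were 0.24, 0.23, 0.21, -0.29, -0.36 and -0.01 in that order. The lowest in the Cd79a gate were Atf3, at 167 and 85.8 CPM (0.514, 0.489 to 0.541), and Ier3 (0.518), the highest Klf2 (1.14) and Jund (1.15). For Epcam cells Socs3 (0.7185) and Ier3 (0.754) were lowest and Klf2 (1.20) and Nfkbia (1.23) highest. Their part in the ratios of the inducible chaperones was not tested.

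Oxidative and integrated stress genes had median log2 ratios of -0.10 in the Epcam gate, -0.24 in Cd79a, -0.38 in Cd3e, 0.14 in C1q, -0.21 in Col1a2 and -0.01 in Cdh5. The cytosolic members had 0.49, -0.04, -0.10, 0.57, 0.89 and 0.67 in the same order. The medians thus lay on the same side of 0 in Cd79a, Cd3e and C1q and on opposite sides in the other 3 gates. Among Epcam cells 3 of 11 were above 1, with Ddit4 (0.859) and Gadd45b (0.874) lowest and Hmox1 (1.12) and Ddit3 (1.18) highest. Among Cd79a cells 1 of 11 was above 1, with Hmox1 at 20.9 and 10.55 CPM (0.505, 0.437 to 0.583) and Nqo1 (0.575) lowest and Trib3 (0.914) and Gadd45a (1.015) highest. Hmox1, the heme-degrading enzyme that stress induces, was thus on the same side as Hspa1a in B-lineage cells.

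Outside the members, genes among the most like Hspa1a over the 12 points, among 6298 with at least 20 CPM in 6 or more of them, were Dusp1 (r = 0.987), Bag3 (0.9856), App (0.979) and Leprot (0.979). Bag3 is a co-chaperone, while Dusp1 is also on the immediate early list. For Hspd1 the most alike were Psmd10 (0.807), Ywhah (0.793), Nipsnap3b (0.793), Aldh9a1 (0.792) and Mmadhc (0.762), none as close as Hspe1. These values describe 12 points that share libraries and some cells.

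Outside the gates, the 872 RA and 493 butyrate cells in no gate held 5438 and 5672 CPM of cytosolic and 677.5 and 869 CPM of mitochondrial chaperones. Their Hspa1a level was 863 and 747.5 CPM, between the lymphocyte and the epithelial gates. Cells over the mitochondrial limit were far lower, with 822 and 1143 CPM of cytosolic and 82.1 and 111 CPM of mitochondrial chaperones.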

How the data were processed

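Raw UMI counts, as deposited, were read for 2 libraries of droplet 3' chemistry, 1 per group. Per the file headers they come from Cell Ranger 7.1.0, whereas the submitters' processing notes name Cell Ranger 6.0.1, Seurat 4.0.3 and 4.0.4 and mm10. Whether intronic reads were counted is not given in the sources used here.

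Kept barcodes had at least 500 UMIs, 250 genes and at most 25% mitochondrial UMIs. No doublet caller was run, and leaving out cells that pass several gates serves in its place. Of all barcode sequences 27 occurred in both libraries, 19 after filtering, and none was removed. UMIs were summed per gate and library and given as CPM of the gate with exact Poisson 95% intervals. Ratios carry exact conditional binomial intervals, and shares Clopper-Pearson intervals after thinning to 1000 UMIs. UMIs of 1 cell or droplet are not independent samples, so intervals cover counting error only. The scripts (Python 3.11.15, scipy 1.17.1) were tested on simulated data. With 1 library per group there is no test and no p-value.

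All 10 members are named. Of each pathway list the 2 highest and 2 lowest ratios in the Epcam and Cd79a gates are named, and the 5 genes most like Hspa1a and Hspd1, of which 1 is not reported here. The members and lists were chosen with earlier results of these data known. Gene positions are from GENCODE M21 and promoters from RefSeq, both on GRCm38, and 8 of the 10 members matched the promoter table. The alternatives tried were 8 chosen at the outset and 2 after seeing the data.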

Additional observations from a re-analysis of the deposited data

Results flagged for a closer look

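For 4 members the butyrate library was the lower one in both lymphocyte gates and the higher one in the Epcam, C1q, Col1a2 and Cdh5 gates. The difference between the gates was not tested, as there is 1 library per group. The Cd79a and Cd3e ratios (butyrate over RA) were 0.758 and 0.732 for Hspa1a, 0.831 and 0.7415 for Hspa1b, 0.903 and 0.886 for Dnajb1, and 0.866 and 0.857 for Dnaja1. In cells of 1 gate only they were 0.483 and 0.985, 0.565 and 0.868, 0.768 and 0.798, and 0.727 and 0.829 in the same order. At doubled gate thresholds the Cd79a ratio was 0.9995 for Hspa1b and 1.11 for Dnajb1. In the Epcam gate Dnaja1 was at 0.951 after thinning and 0.973 as a mean over cells, so the contrast between gates does not hold for these genes under those alternatives.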

How the results depend on the processing

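Among 60 member ratios (10 genes in 6 gates), thinning put 3 on the other side of 1, as did the mean over cells and doubled gate thresholds. Leaving out cells marked by Mki67 or Top2a did so for 2, cells of 1 gate only for 1, and the other 5 alternatives for 0. With 1 library per group, no result has a replicate check, and fewer cells limit the C1q and Cdh5 gates most. No paired analysis was possible because each group has 1 library. The only summed ratio that changed side of 1 was the cytosolic one of the Cd79a gate, from 0.984 to 1.048 at doubled thresholds.

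The summed ratios (butyrate over RA) moved beyond their counting interval as follows, with C for the cytosolic and M for the mitochondrial sum. Thinning to 1000 UMIs gave C 1.128 and M 1.473 (Epcam), 0.8218 and 1.202 (Cd79a), 0.8765 and 1.158 (Cd3e), 1.929 and 2.188 (Col1a2), and 1.555 and 2.191 (Cdh5). The mean over cells gave 1.122 and 1.332 (Epcam), 0.8236 and 1.184 (Cd79a), 0.8734 and 1.132 (Cd3e), 1.991 and 1.967 (Col1a2), with C 1.332 (C1q) and 1.562 (Cdh5). Cells of 1 gate only gave 1.402 and 1.429 (Epcam), 0.8594 and 1.332 (Cd79a), 1.952 and 1.922 (Col1a2), and 1.70 and 1.869 (Cdh5), with M 1.138 (Cd3e). Doubled gate thresholds gave C 1.433 (Epcam), 1.048 (Cd79a) and 1.74 (Cdh5), with M 1.497 (Cd79a). CPM without mitochondrial UMIs gave C 1.312 (Epcam), 0.9734 (Cd79a) and 1.818 (Col1a2). Without the mitochondrial limit C was 1.482 (Epcam) and 1.859 (Col1a2), with M 1.789 (Epcam). A limit of 10% gave C 0.9251 (Cd3e), 1.26 (C1q) and 1.794 (Col1a2), with M 1.224 (Cd3e). Of the alternatives chosen after seeing the data, leaving out cells with a UMI of Mki67 or Top2a gave C 1.299 (Epcam), 0.8415 (Cd79a), 0.8824 (Cd3e) and 1.359 (C1q), with M 1.274 (Cd79a), 1.136 (Cd3e) and 2.072 (C1q). Leaving out the 10 cells richest in the sum gave C 0.966 (Cd79a), 0.9367 (Cd3e) and 1.881 (Col1a2), with M 1.566 (Epcam) and 1.427 (Cd79a). The cause was not tested.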

Other observations

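Some genes outside the naming rule were picked after their values were seen. In the Col1a2 gate, the small heat shock gene Cryab was at 119 CPM (RA) and 380.7 (butyrate) (ratio 3.19, 2.93 to 3.48), opposite to its direction in the Epcam and Cd79a gates. Smooth muscle and glial markers moved with Cryab there, at 215 and 415 CPM and at 9.07 and 29.7 CPM. Mesothelial markers went the other way, at 77.1 and 6.13 CPM. The part of such cells in the Cryab ratio was not tested. The ER chaperones past 1.5-fold in the Col1a2 gate were Creld2 (9.72 and 35.8 CPM, ratio 3.69), Hspa5 (627 and 1094 CPM, 1.745), Hyou1 (13.2 and 21.75 CPM, 1.65) and Manf (119 and 181 CPM, 1.525). Hspa5 (BiP) is the Hsp70 of the ER.

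The cell with the most Hspa1a UMIs held 451 of 131635 UMIs in the RA library, in the Epcam gate alone, and 891 of 147816 in the butyrate library, in the Epcam and Cd79a gates. The same butyrate cell also held the most Hspb1 UMIs, 286.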
